A study of Mus musculus with 24 samples.

Results

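The activation response of CD4 T cells with a conditional deletion of Acly, the gene of ATP-citrate lyase, was measured by comparing 3 activated with 3 resting libraries, all from CD4-Cre Aclyfl/fl mice, here called Acly KO. These are 6 of the 24 libraries of the study, and the comparison covers the 26773 of 46981 genes that reached at least 1 RPM (reads scaled to a fixed total per library) in at least 3 of the 6. The activated cells were stimulated through CD3 and CD28 for 24 h, and the resting cells received no stimulus. WT cells of the same cohort, 3 activated in the same way and 3 resting, served to set the KO response beside. All 6 KO libraries carry the floxed allele and a Cre transgene driven by the Cd4 promoter, which is active from the stage of thymus development at which Cd4 is first made and thus long before the stimulus. Activated and resting KO cells thus share a genotype by label, and how complete the deletion was in either is not measured here. The labels do not say whether WT mice carried Cre, which exon is removed, whether cells of several mice were pooled, or whether libraries of a group came from separate mice. P-values therefore measure only the spread between these libraries.

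ATP-citrate lyase cleaves citrate exported from mitochondria and gives the acetyl-CoA that the cytosol and nucleus use for cholesterol, for fatty acids and for histone acetylation. A resting T cell is small and makes little RNA or protein. Signals through the T cell receptor and CD28 lead it to take up nutrients, to enlarge its ribosome pool, to copy its DNA and to secrete cytokines. Acetate, converted by the acetyl-CoA synthetases ACSS1 and ACSS2, and nuclear pyruvate dehydrogenase are known alternative sources of acetyl-CoA.

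The KO libraries held 806545 to 1081628 recovered counts in activated cells and 642029 to 668894 in resting cells. A count was worth 0.755 to 1.07 RPM in activated and 1.06 to 1.26 RPM in resting libraries, so that a gene with no count could have had up to 2.26 to 3.21 and 3.19 to 3.78 RPM, the worth of 3 counts (intervals and limits of this kind cover counting error only). The make-up of the libraries moved with activation. Olfactory and vomeronasal receptor genes, whose products sense odours and pheromones, together had 31346, 31958 and 40831 RPM in activated KO and 105711, 107378 and 109181 RPM in resting KO. The other protein-coding genes took 74.4%, 74.7% and 70.9% of the activated and 51.1%, 51.4% and 49.2% of the resting libraries. Because RPM forces each library to the same total, genes were called on RPM and again after composition scaling, which divides each library by a trimmed mean of its gene-wise ratios to a common library. A log2 change or median given once is on RPM, and values after composition scaling are named as such. The log2 of this factor differed by -0.62 on average between activated and resting KO libraries (activated minus resting). Libraries also differed within groups. Xist, transcribed from the inactive X chromosome, had 6.80, 55.9 and 132 RPM in activated KO libraries 1 to 3 and 10.3, 42.8 and 55.7 RPM in resting KO, and Ddx3y, on the Y chromosome, had 78.0, 1.76 and 4.28 RPM in activated and 41.3, 3.19 and 17.7 RPM in resting KO. Library number 1 of each group was thus low in Xist and high in Ddx3y. Library number 3 was not alike in both groups, with more Xist and less Ddx3y in activated than in resting KO. In bulk RNA, fewer cells of a type and less RNA per cell cannot be told apart.

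**Figure D1:**
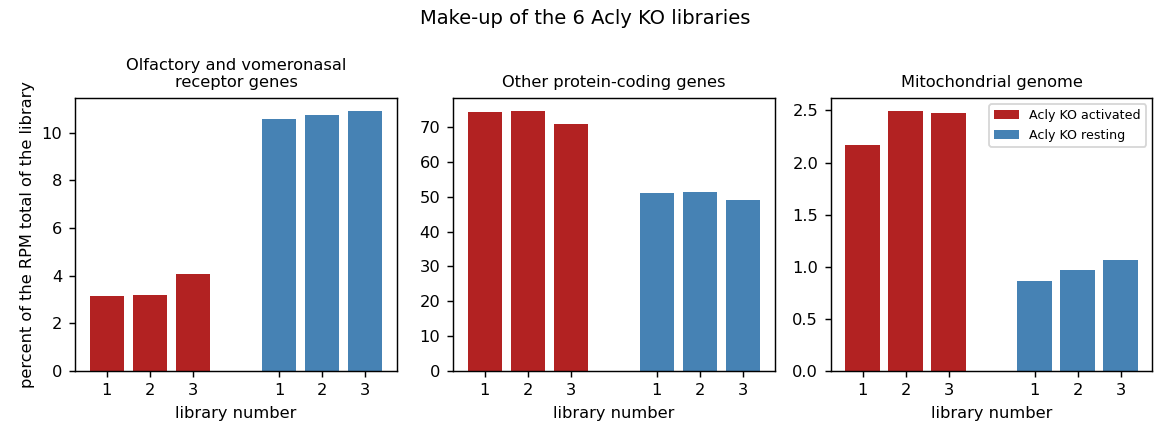
Bars give the percent of the RPM total of each Acly KO library taken by olfactory and vomeronasal receptor genes, by the other protein-coding genes and by genes of the mitochondrial genome, activated libraries left of resting ones. Receptor genes took at most 40831 RPM in activated libraries, against at least 105711 RPM in resting ones.

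Acly itself (ENSMUSG00000020917, chromosome 11, GRCm38 positions 100476353 to 100528000, protein-coding) had 11.3, 10.6 and 15.0 RPM in activated KO and 8.0, 1.06 and 5.04 RPM in resting KO. The 3 activated libraries lay above the 3 resting ones, and the lowest resting value was a single count. In WT the gene had 104, 111 and 109 RPM in activated and 5.80, 9.87 and 8.94 RPM in resting cells, so activated KO cells had a far lower level than activated WT cells in every library, while resting KO and resting WT values overlapped. The log2 change on activation was 1.60 ± 0.45 (SE) in KO and 3.67 ± 0.45 in WT (limma on log2(RPM + 0.5), the scale of all log2 changes below, 3 libraries a group). The KO change passed the threshold of 0.05 with an adjusted p of 0.00402 (limma, Benjamini-Hochberg adjustment over all 26773 genes, as for every adjusted p given) and was 2.18 after composition scaling, but it was 0.88, with an adjusted p of 0.0525, without resting library 2 (adjusted p of 6.27e-07 to 0.0525 over 25 alternatives). Which part of the transcript the reads come from is not given in the sources used here, so this level does not measure how complete the deletion was.

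Activation was followed by a broad shift in RNA levels. On RPM, 6463 genes (24.1% of those tested) were higher and 8711 (32.5%) were lower in activated than in resting KO cells. After composition scaling, 7818 (29.2%) were higher and 4676 (17.5%) were lower. All 6463 rises and 4676 falls that stood on both scales had the same direction, 4035 genes (15.1%) were lower on RPM alone, and 1355 (5.06%) were higher after scaling alone. The share of calls that were rises was thus 42.6% on RPM and 62.6% after scaling, and the median log2 change of all genes was -0.73 on RPM and -0.26 after scaling. Below, a gene is said to have risen or fallen where it passed on both scales. Protein-coding genes made up 4734 of the rises and 2385 of the falls. The activated and resting groups did not overlap, with higher values in activated KO, for 6920 genes (25.8%), and with lower values for 10384 (38.8%). Of the 13945 genes with at least 10 RPM on average in a group, 36.4% rose and 24.5% fell. The counts of each gene list below compare to these shares and to the 24.1% and 17.5% of all genes.

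**Figure D2:**
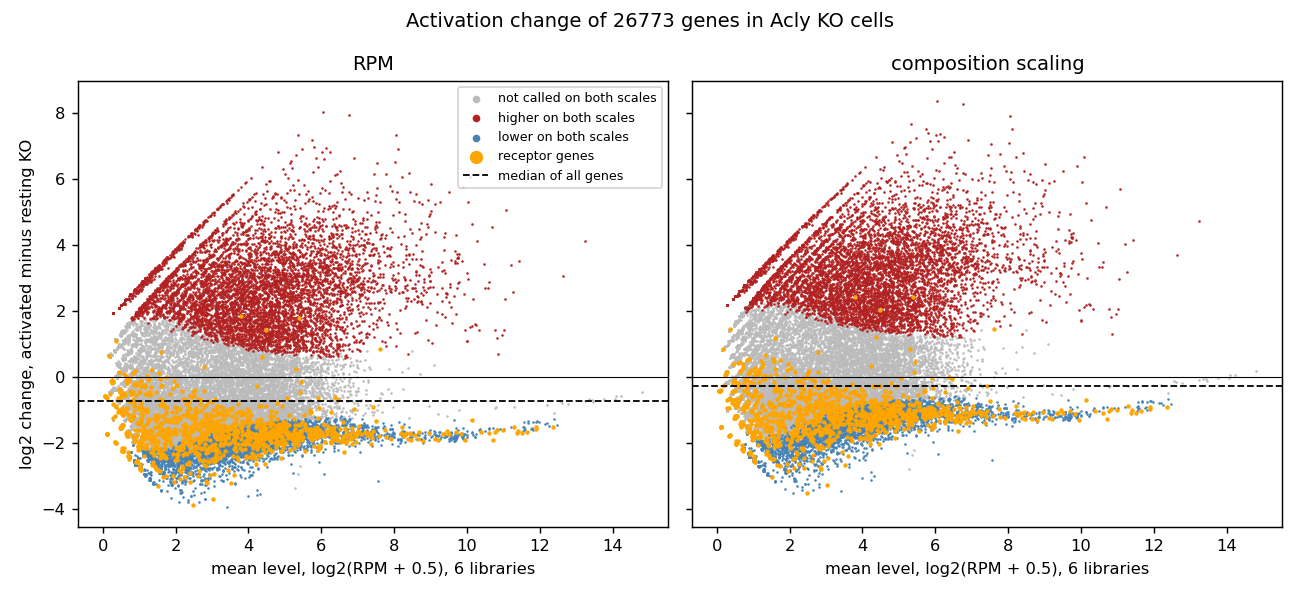
Each point is a gene, with its mean level over the 6 Acly KO libraries on the horizontal axis (log2(RPM + 0.5)) and its log2 change, activated minus resting, on the vertical axis, on RPM (left) and after composition scaling (right). Rises spread up to 8.03 on RPM, and the receptor genes have a median of -1.69 on RPM and -1.11 after scaling.

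The 15 largest rises among named genes of at least 10 RPM had varied known roles. Ccl4, a chemokine that draws in other immune cells, had 161, 214 and 270 RPM in activated KO and 0, 2.13 and 0 RPM in resting KO, a ratio of 272 in pooled counts (95% counting interval 75.1 to 2.25e+03). It resembles Ccl3 closely, and reads may be split between both genes. Gbp2, an interferon-induced GTPase with close relatives, had 489, 586 and 506 RPM in activated and 6.86, 2.13 and 1.26 RPM in resting KO (log2 change 7.34 ± 0.37, adjusted p 9.83e-15). Gzmb, the granzyme B protease of cytotoxic granules, had 156, 123 and 104 RPM in activated and 1.14, 0 and 1.26 RPM in resting KO. No resting value of these genes came near an activated one. Tnfrsf4, the costimulatory receptor OX40, had 104, 102 and 113 RPM in activated and 0, 1.06 and 0 RPM in resting KO. Srm, which makes the polyamine spermidine, had 622, 513 and 495 RPM in activated and 5.71, 2.13 and 5.04 RPM in resting KO (log2 change 6.91 ± 1.07, adjusted p 7.30e-04). Its SE was wider than that of Gbp2, and its activated libraries stood clear of the resting ones.

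A further 3 of the largest rises had no count in any resting library. Lad1, which codes for a protein of epithelial anchoring filaments, had 122, 149 and 120 RPM in activated KO and 0 RPM in each resting library, at least 37.7-fold higher against the worth of 3 counts per library. Nefh, a neurofilament subunit, was at least 23.2-fold higher, with 72.6, 91.0 and 77.6 RPM in activated KO, and Crabp2, a carrier of retinoic acid, at least 16.0-fold, with 57.1, 55.9 and 53.8 RPM. Both were at 0 RPM in every resting KO library. The others of the 15 largest rises were Mcm3, part of the helicase that unwinds DNA for replication; Dut, which keeps uracil out of DNA; the glycolytic enzyme Tpi1; Apex1, a DNA repair nuclease; Nhp2, a protein of ribosome-modifying particles; Cluh, which binds messengers of mitochondrial proteins; and Acot7, which hydrolyses acyl-CoA. Their log2 changes on RPM lay between 6.62 for Acot7 and 6.97 for Mcm3.

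Promoter windows from 250 bases before to 50 after the start were taken from RefSeq (GRCm38.p6), where 11 of these 15 genes had one. The motifs searched for, each on both strands, were the MYC E-box CACGTG, the ETS motif CCGGAAG, the AP-1 motif TGACTCA and the NF-Y motif CCAAT. The 4 windows shown have the first 3 motifs in capitals, while the NF-Y motif, found in 37.9% of all windows of the table, is left in lower case. They belong to rises with roles in DNA repair, mitochondria, ribosome assembly and killing, and they lie at chr14:50924699-50924998 (plus strand, Apex1), chr11:74649254-74649553 (plus strand, Cluh), chr11:51619523-51619822 (plus strand, Nhp2) and chr14:56262285-56262584 (minus strand, Gzmb).
Apex1: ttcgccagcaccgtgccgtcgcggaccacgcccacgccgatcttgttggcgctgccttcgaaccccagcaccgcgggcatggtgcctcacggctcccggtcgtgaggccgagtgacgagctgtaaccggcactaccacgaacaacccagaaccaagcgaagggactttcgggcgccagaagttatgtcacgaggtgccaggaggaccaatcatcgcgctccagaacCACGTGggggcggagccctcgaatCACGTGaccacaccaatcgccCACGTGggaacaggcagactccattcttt
Cluh: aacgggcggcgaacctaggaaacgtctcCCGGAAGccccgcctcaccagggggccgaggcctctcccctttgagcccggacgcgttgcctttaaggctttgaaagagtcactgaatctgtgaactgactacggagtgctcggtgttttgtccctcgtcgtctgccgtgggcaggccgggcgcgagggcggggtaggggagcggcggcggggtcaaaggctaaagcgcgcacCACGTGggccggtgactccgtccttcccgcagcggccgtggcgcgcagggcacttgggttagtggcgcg
Nhp2: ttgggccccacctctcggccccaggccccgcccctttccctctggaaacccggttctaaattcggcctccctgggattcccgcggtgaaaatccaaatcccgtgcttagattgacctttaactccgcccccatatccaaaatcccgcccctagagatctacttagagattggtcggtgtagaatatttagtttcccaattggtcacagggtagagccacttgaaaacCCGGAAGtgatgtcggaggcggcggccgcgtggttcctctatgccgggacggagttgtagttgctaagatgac
Gzmb: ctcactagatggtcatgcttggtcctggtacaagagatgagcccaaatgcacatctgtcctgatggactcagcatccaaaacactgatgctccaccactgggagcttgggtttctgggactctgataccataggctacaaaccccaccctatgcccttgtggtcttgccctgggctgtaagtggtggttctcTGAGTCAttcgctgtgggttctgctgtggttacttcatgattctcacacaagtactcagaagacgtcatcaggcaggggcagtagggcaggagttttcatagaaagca
Apex1 held 3 copies of the E-box, Cluh held 1 E-box and 1 ETS motif, Nhp2 held 1 ETS motif, and Gzmb held 1 AP-1 motif in its reverse complement. The E-box stood in 3 of the 11 windows, those of Tnfrsf4, Apex1 and Cluh, and in 7.24% of all 27025 windows of the RefSeq table. Among the same 11, the ETS motif stood in the windows of Cluh and Nhp2 and the AP-1 motif in those of Gbp2 and Gzmb. Each window shown thus held a marked motif, while those of Lad1, Mcm3, Dut, Tpi1 and Acot7 held none of these 3 motifs. Of the 40 tested ribosome biogenesis genes, 35 had a window; 13 of these (37.1%) held the ETS motif, against 9.12% of all windows, and 8 (22.9%) held the E-box. None of the 35 held the AP-1 motif, found in 5.17% of all windows, and 11 (31.4%) held the NF-Y motif, which stood in 9 of 12 windows of serine and one-carbon genes. Among the 12725 tested protein-coding genes with a window the shares were 14.9% for ETS, 8.91% for the E-box, 4.09% for AP-1 and 39.0% for NF-Y. Among the 3772 genes with a window that rose they were 24.5%, 11.3%, 2.86% and 40.3% in the same order. Windows were found for 78.2% of the tested and 79.7% of the risen protein-coding genes, so the sets are incomplete and the shares are a description only. A match of letters is a description and was not tested as a binding site.

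Genes that supply acetyl-CoA or use it rose widely in Acly KO cells. Of 19 tested genes of acetyl-CoA supply, 11 rose and 1 fell, beside 24.1% of all genes that rose and 17.5% that fell on both scales, and the median log2 change was 1.54 on RPM and 2.15 after scaling. Pdha1, a subunit of the pyruvate dehydrogenase complex that makes acetyl-CoA inside mitochondria, had 94.3, 97.4 and 101 RPM in activated KO and 9.14, 10.7 and 7.57 RPM in resting KO (log2 change 3.36 ± 0.30, adjusted p 2.10e-10). Slc25a1, the carrier that exports citrate from mitochondria, had 74.9, 49.7 and 70.0 RPM in activated and 4.57, 2.13 and 2.52 RPM in resting KO (log2 change 4.23 ± 0.44). The cytosolic malate dehydrogenase Mdh1 averaged 87.2 ± 3.29 RPM in activated and 2.76 ± 1.48 RPM in resting KO (SD, n = 3 each). These 3 genes did not overlap between the groups.

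The genes of acetate use did not rise on RPM or after composition scaling. Acss1, the mitochondrial acetyl-CoA synthetase, was the member of the list that fell, with 1.51, 0.881 and 4.28 RPM in activated KO and 12.6, 11.7 and 15.1 RPM in resting KO (log2 change -2.52 ± 0.54, adjusted p 3.57e-04). Acss2, the cytosolic and nuclear synthetase, had 12.9, 10.6 and 7.49 RPM in activated and 17.2, 12.8 and 15.1 RPM in resting KO, and its groups overlapped at a single value (log2 change -0.54 ± 0.37 on RPM, adjusted p 0.211, and 0.06 after scaling). Both synthetases were named after their values were seen. Acss2 was called higher when scaled to receptor genes (log2 change 1.03, adjusted p 0.0293, limma). It was called lower when scaled to protein-coding RNA (-1.06, adjusted p 0.0181, limma), so its direction hinges on the scale. Acss1 did not pass when scaled to receptor genes (-1.09, adjusted p 0.106, limma). Both scalings are described with the receptor genes. Among 7 tested pyruvate dehydrogenase kinases and phosphatases, which switch that complex off and on, the median changed sign with the scale, at -0.07 on RPM and 0.50 after scaling. The kinase Pdk3 had 35.7, 24.8 and 27.9 RPM in activated KO and 2.28, 3.19 and 3.78 RPM in resting KO and rose (log2 change 3.07 ± 0.41). Pdk4 had 0.755, 0.881 and 1.07 RPM in activated, a single count in each library, and 10.3, 6.39 and 8.83 RPM in resting KO and fell (log2 change -2.66 ± 0.64, adjusted p 0.00107). Scaled to receptor genes, Pdk4 did not pass (log2 change -1.33, adjusted p 0.0990, limma). Pdk1 was lower on RPM alone, at 37.4 ± 13.2 RPM in activated and 85.6 ± 17.1 RPM in resting KO.

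Cholesterol synthesis stood among the lists with mostly rising members: 17 of 21 tested genes rose and none fell, with a median log2 change of 2.96 on RPM and 3.57 after scaling. Hmgcs1, which makes HMG-CoA from acetyl units at the head of the pathway, had 226, 135 and 162 RPM in activated KO and 8.0, 20.3 and 16.4 RPM in resting KO (log2 change 3.57 ± 0.35, adjusted p 1.66e-09). Cyp51, which removes a methyl group from lanosterol, had 175, 159 and 151 RPM in activated and 5.71, 3.19 and 3.78 RPM in resting KO (log2 change 5.13 ± 0.34). Activated library 1 was the highest for both genes and neither overlapped between groups. Fdft1, squalene synthase, changed by 5.57 ± 0.48 and Acat2, which joins acetyl-CoA units, by 4.53 ± 0.30. Of the 14 tested genes of sterol sensing, uptake and efflux, 7 rose, among them Srebf2, the transcription factor of sterol shortage, at 68.2 ± 9.23 RPM in activated and 22.0 ± 4.69 RPM in resting KO.

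Fatty acid synthesis rose in 14 of 19 tested genes, with a median log2 change of 2.43 on RPM. Fasn, the fatty acid synthase, had 54.1, 42.5 and 35.4 RPM in activated KO and 2.28, 1.06 and 2.52 RPM in resting KO (log2 change 4.22 ± 0.55, adjusted p 3.14e-07). Scd2, a desaturase, averaged 76.9 ± 10.3 RPM in activated and 5.52 ± 2.96 RPM in resting KO. Acaca, which turns acetyl-CoA into malonyl-CoA and commits it to fatty acids, named after its values were seen, had 31.9, 23.0 and 28.9 RPM in activated and 35.5, 49.2 and 69.8 RPM in resting KO. It was lower on RPM alone (log2 change -0.83 ± 0.30, adjusted p 0.0206, and -0.21 after scaling), and that call was lost without activated library 2 or without resting library 3 (log2 change -0.70 and -0.59). Fatty acid oxidation rose in 11 of 18 genes, with Acadl, a dehydrogenase of the pathway, at 40.6 ± 7.74 RPM in activated and 3.55 ± 2.60 RPM in resting KO. Of 13 tested histone acetyltransferases, which spend acetyl-CoA on chromatin, 6 rose, and the median of 0.27 on RPM and 0.88 after scaling was negative when libraries were scaled to their share of protein-coding RNA (-0.26). Hat1, which acetylates new histones, changed by 3.87 ± 0.32, at 115 ± 12.4 RPM in activated and 7.83 ± 3.13 RPM in resting KO. Of 10 histone deacetylases 4 rose, Hdac2 and Hdac7 among them (log2 change 3.32 ± 0.27 and 3.95 ± 0.42). Rises were 46.2% of these acetyltransferases and 40% of these deacetylases, beside 36.4% of all genes with at least 10 RPM.

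**Figure D3:**
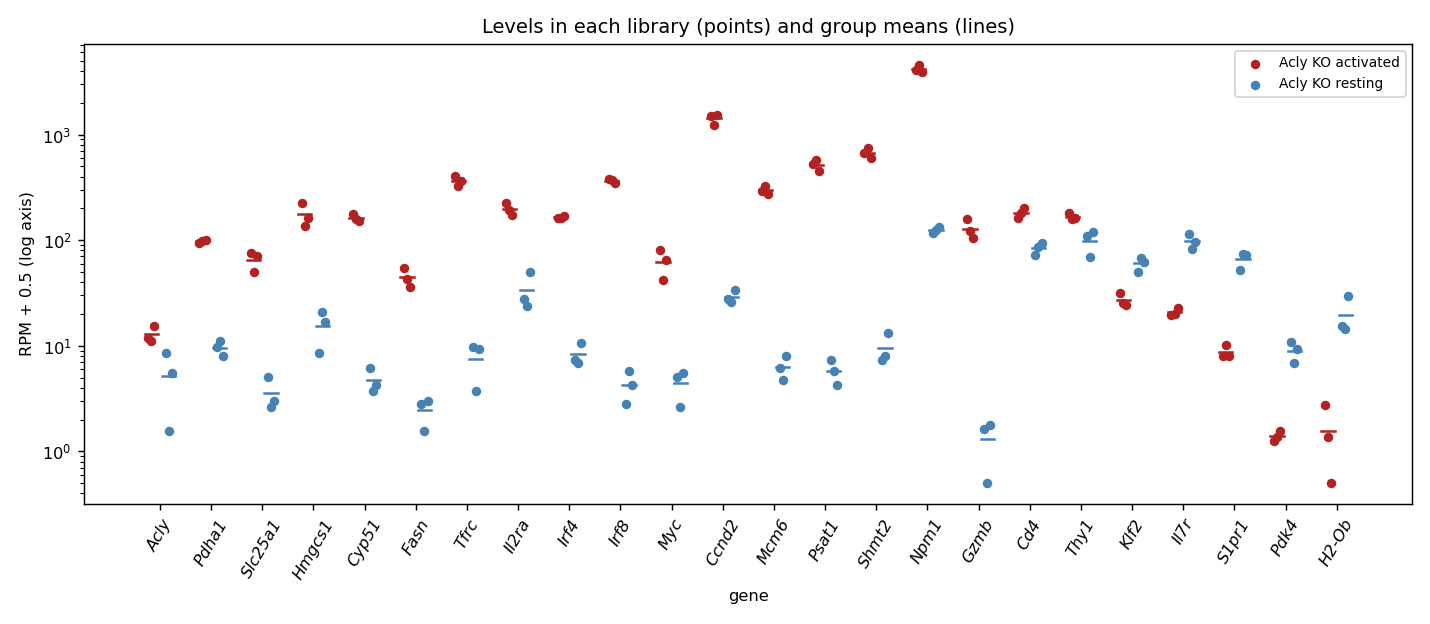
Points give RPM + 0.5 on a log axis in each Acly KO library and lines give group means, activated left of resting for each gene. From Acly to Thy1 the activated libraries lie above the resting ones, and from Klf2 to H2-Ob they lie below.

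Surface receptors of activated T cells rose in 14 of 16 tested genes, with a median log2 change of 3.35 on RPM and 3.96 after scaling. Tfrc, the transferrin receptor that brings in iron, had 400, 328 and 363 RPM in activated KO and 9.14, 3.19 and 8.83 RPM in resting KO (log2 change 5.71 ± 0.32, adjusted p 1.35e-14). Il2ra, the high-affinity chain of the interleukin-2 receptor, had 225, 192 and 172 RPM in activated and 27.5, 23.5 and 49.4 RPM in resting KO (log2 change 2.60 ± 0.27). Cd69, an early activation marker, had 118, 131 and 109 RPM in activated and 13.7, 11.7 and 12.6 RPM in resting KO. Il2ra and Cd69 were named after their values were seen, and all 3 receptors were higher in every activated library than in any resting one. The costimulatory receptor Icos and Ly6a, a lipid-anchored surface protein, changed by 3.52 ± 0.27 and 4.55 ± 0.26. Of 9 inhibitory receptors and ligands 5 rose and 1 fell. Pdcd1, which codes for PD-1, had 28.8, 31.9 and 45.1 RPM in activated and 0, 1.06 and 0 RPM in resting KO, while Tigit, another inhibitory receptor, fell (4.38 RPM on average in activated and 17.6 RPM in resting KO).

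Transcription factors of activation rose in 19 of 23 tested genes, with a median log2 change of 2.97. Irf8, a factor of the interferon regulatory family, had 379, 373 and 343 RPM in activated KO and 2.28, 5.32 and 3.78 RPM in resting KO (log2 change 6.47 ± 0.35, adjusted p 7.51e-15). Irf4, whose level follows the strength of receptor signals, had 162, 160 and 168 RPM in activated and 6.86, 6.39 and 10.1 RPM in resting KO (log2 change 4.33 ± 0.31). Myc, the factor that drives growth and metabolism in activated T cells, named after its values were seen, had 79.5, 41.7 and 64.6 RPM in activated and 4.57, 2.13 and 5.04 RPM in resting KO (log2 change 3.85 ± 0.41). None of these 3 overlapped between groups. Nfkb2, an NF-kB subunit, changed by 5.41 ± 0.28 and Junb, part of AP-1, by 3.58 ± 0.38. Factors of helper lineages were mixed, with 4 rises (40%) and 1 fall among 10, beside 36.4% of all genes with at least 10 RPM that rose. Their median of 0.07 on RPM was 0.67 after composition scaling and -0.45 when scaled to protein-coding RNA. Tbx21, the factor of type 1 helper cells, had 33.4, 27.4 and 34.3 RPM in activated and 3.43, 2.13 and 0 RPM in resting KO. Foxp3, the factor of regulatory T cells, had 26.5, 39.0 and 20.4 RPM in activated and 4.57, 4.26 and 0 RPM in resting KO. Rora, a factor of type 17 helper and innate lymphoid cells, had 9.83, 8.82 and 6.42 RPM in activated and 36.7, 18.1 and 30.3 RPM in resting KO and fell (log2 change -1.67 ± 0.38, adjusted p 6.80e-04). Scaled to receptor genes, as described with those genes, Rora did not pass (log2 change -0.08, adjusted p 0.915, limma).

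Cytokines and effector molecules rose in 14 of 19 tested genes, with a median log2 change of 3.08. Ifng, which codes for interferon gamma, had 34.9, 32.8 and 35.4 RPM in activated KO and 1.14, 0 and 0 RPM in resting KO, a ratio of 89.1 in pooled counts (95% counting interval 15.7 to 3.55e+03). Il2, the T cell growth factor, had 26.5, 19.4 and 24.6 RPM in activated and 0, 1.06 and 0 RPM in resting KO, and Tnf had 37.2, 47.0 and 39.7 RPM in activated and 1.14, 0 and 1.26 RPM in resting KO, both named after their values were seen. Lta, a relative of Tnf, had 44.1, 42.5 and 44.0 RPM in activated and 0, 0 and 1.26 RPM in resting KO. Resting values of these 4 cytokines were at most 1 count in a library, so the sizes of their rises are loosely bounded. Of 12 genes that carry or damp cytokine signals 9 rose. Socs1, an inhibitor of JAK kinases, had 289, 354 and 245 RPM in activated and 6.86, 7.45 and 12.6 RPM in resting KO, and the kinase Pim2 and the inhibitor Cish changed by 4.81 ± 0.29 and 3.16 ± 0.33.

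The cell cycle lists differed in how many members rose. Of 17 tested G1 cyclins, kinases and inhibitors, 9 rose and 1 fell. Ccnd2, the cyclin that starts the cycle in lymphocytes, had 1488, 1238 and 1537 RPM in activated KO and 27.5, 25.6 and 32.9 RPM in resting KO (log2 change 5.61 ± 0.21, adjusted p 9.46e-18). Cdk4, its kinase partner, averaged 279 ± 2.64 RPM in activated and 11.6 ± 1.74 RPM in resting KO. Cdkn1b, the inhibitor p27 that holds cells in quiescence, was the member that fell, with 66.4, 56.8 and 66.8 RPM in activated and 133, 163 and 221 RPM in resting KO (log2 change -1.41 ± 0.26 on RPM, adjusted p 5.12e-05, and -0.79 after scaling). Replication genes rose in 33 of 41, with a median log2 change of 2.90 on RPM. Mcm6, of the replicative helicase, had 292, 328 and 276 RPM in activated and 5.71, 4.26 and 7.57 RPM in resting KO, and Rrm2, which makes deoxynucleotides, 631, 541 and 567 RPM in activated and 11.4, 4.26 and 11.4 RPM in resting KO. Pcna, the sliding clamp of DNA polymerase, averaged 805 ± 82.5 RPM in activated and 20.1 ± 3.51 RPM in resting KO. Both groups were far apart for all of these.

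Genes of G2 and mitosis rose in 14 of 29 and 1 of them, the phosphatase gene Cdc25b, fell, with a median log2 change of 0.77 on RPM and 1.33 after scaling. Mki67, the proliferation marker, had 116, 64.9 and 96.2 RPM in activated KO and 9.14, 5.32 and 8.83 RPM in resting KO (log2 change 3.49 ± 0.31). Top2a, the topoisomerase that untangles chromosomes, averaged 204 ± 38.0 RPM in activated and 26.0 ± 4.02 RPM in resting KO. Ccnb1, the cyclin of mitotic entry, named after its values were seen, did not pass: it had 12.9, 7.06 and 22.5 RPM in activated and 9.14, 16.0 and 16.4 RPM in resting KO, and the groups overlapped (log2 change -0.07 ± 0.39 on RPM and 0.53 after scaling). Replication-dependent histone genes rose in 24 of 38, with Hist1h2ap at 156, 91.0 and 132 RPM in activated and 2.28, 1.06 and 2.52 RPM in resting KO. Histone genes are near-identical copies, so that reads can be shared between them and the value of a single copy is uncertain.

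Central metabolism rose across its lists. Glycolysis rose in 17 of 19 tested genes (median log2 change 3.03), the TCA cycle in 18 of 20 (2.54), serine and one-carbon metabolism in 11 of 15 (3.83), purine and pyrimidine synthesis in 16 of 20 (3.47) and polyamine metabolism in 10 of 12 (2.42). Pgam1, which moves a phosphate late in glycolysis, had 897, 939 and 1006 RPM in activated KO and 20.6, 16.0 and 35.4 RPM in resting KO (log2 change 5.35 ± 0.24, adjusted p 2.77e-16). Ldha, which makes lactate, had 935, 930 and 901 RPM in activated and 98.1, 74.0 and 119 RPM in resting KO (log2 change 3.27 ± 0.20). Hk2, an inducible hexokinase, named after its values were seen, had 16.7, 8.82 and 22.5 RPM in activated and 8.0, 13.9 and 8.83 RPM in resting KO, with overlap, and passed after scaling alone (log2 change 0.56 ± 0.39 on RPM and 1.16 after scaling). The glucose transporter gene Slc2a1, also named after its values were seen, averaged 9.16 ± 2.51 RPM in activated and 1.96 ± 0.782 RPM in resting KO and rose.

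In mitochondria, Cs, the citrate synthase that joins acetyl-CoA with oxaloacetate, had 176, 152 and 188 RPM in activated KO and 36.7, 42.8 and 45.6 RPM in resting KO (log2 change 2.03 ± 0.24). Mdh2, the malate dehydrogenase of the cycle, changed by 3.69 ± 0.30. Psat1 and Shmt2, which make serine and pass its carbon to folate, reached 516 ± 59.1 and 669 ± 73.3 RPM in activated KO, against 5.32 ± 1.54 and 8.97 ± 3.17 RPM in resting KO (log2 change 6.50 ± 0.27 and 6.19 ± 0.28). Odc1, the first enzyme of polyamine synthesis, averaged 543 ± 49.2 RPM in activated and 13.4 ± 1.79 RPM in resting KO. Of 13 genes of glutamine and aspartate metabolism 9 rose, with the transaminase genes Got1 and Got2 at log2 changes of 4.54 ± 0.30 and 4.79 ± 0.29. Of 11 amino acid transporters 7 rose and 1 fell: Slc7a5, which carries large neutral amino acids, had 33.4, 30.1 and 35.4 RPM in activated and 0, 0 and 1.26 RPM in resting KO, and Slc7a11, the cystine carrier, averaged 31.2 RPM in activated and 82.2 RPM in resting KO. Among 56 nuclear genes of the respiratory chain 55 rose, with a median log2 change of 3.56, and Ndufb2, a subunit of complex I, was lower on RPM alone. Cycs, cytochrome c, averaged 912 ± 121 RPM in activated and 36.0 ± 5.09 RPM in resting KO. Of the 13 protein genes of the mitochondrial genome 10 rose, with a median of 1.28, mt-Nd1 having 2900, 3834 and 3854 RPM in activated and 537, 683 and 868 RPM in resting KO.

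The machinery of protein synthesis rose nearly throughout. All 79 tested cytosolic ribosomal protein genes rose, with a median log2 change of 2.83 on RPM and 3.45 after scaling, although their many near-identical pseudogenes leave single values uncertain. Rpl4 had 11478, 11795 and 10755 RPM in activated KO and 1461, 1296 and 1326 RPM in resting KO, and Rps2, of the small subunit, averaged 2164 ± 290 RPM in activated and 86.8 ± 15.2 RPM in resting KO. Ptma, prothymosin alpha, a nuclear protein of proliferating cells with many processed copies, was the most abundant rise, at 17144, 20248 and 17395 RPM in activated and 819, 1255 and 1142 RPM in resting KO. Back-calculated from RPM, Ptma used at least 4019 of 4096 molecular identifiers in each activated library, and Rpl4 used at least 3745. Both levels thus lean on an inferred correction for identifiers that coincide. Of 40 ribosome biogenesis genes 37 rose (median 4.38), 23 of 24 translation initiation factors rose (2.92), and 18 of 20 aminoacyl-tRNA synthetases rose (2.76). Npm1, nucleophosmin of the nucleolus, had 4082, 4560 and 3940 RPM in activated and 116, 125 and 131 RPM in resting KO (log2 change 5.07 ± 0.21, adjusted p 6.08e-17). Eif5a, a translation factor that carries a residue made from spermidine, had 2119, 2379 and 1971 RPM in activated and 29.8, 37.4 and 29.1 RPM in resting KO (log2 change 6.05 ± 0.22). Mitochondrial ribosomal protein genes rose in 66 of 78, while Mrpl48 fell, at 242 RPM on average in activated and 747 RPM in resting KO.

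Protein folding and turnover moved with them. All 8 CCT chaperonin subunits rose (median log2 change 4.19), with Cct8 at 824 ± 125 RPM in activated KO and 32.3 ± 4.20 RPM in resting KO. Of 34 proteasome genes 32 rose (median 3.85), Psma7 among them (log2 change 4.31 ± 0.24). Of 19 endoplasmic reticulum chaperones and sensors of unfolded proteins 15 rose, with Hspa5, the main chaperone of that compartment, at 240, 216 and 224 RPM in activated and 10.3, 8.52 and 5.04 RPM in resting KO, and Ern1, a sensor kinase, fell. The list of ATF4 and amino acid stress had 5 rises and 2 falls among 12. Atf4 itself changed by 3.51 ± 0.30, while its target Nupr1 had 3.78, 6.17 and 10.7 RPM in activated and 30.9, 16.0 and 24.0 RPM in resting KO (log2 change -1.77 ± 0.42). The HIF pathway had 5 rises and 1 fall among 12. Egln3, an oxygen-sensing hydroxylase, had 15.9, 21.2 and 17.1 RPM in activated and 0 RPM in each resting library, at least 5.22-fold higher. In the BCL2 family of cell death regulators 10 of 14 rose, Bcl2l1, which codes for the survival protein BCL-XL, at 275, 283 and 241 RPM in activated and 36.7, 13.9 and 26.5 RPM in resting KO. Interferon-induced genes had 10 rises and 3 falls among 23, and the antiviral genes Oasl1, Oasl2 and Rsad2 were the falls.

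**Figure D4:**
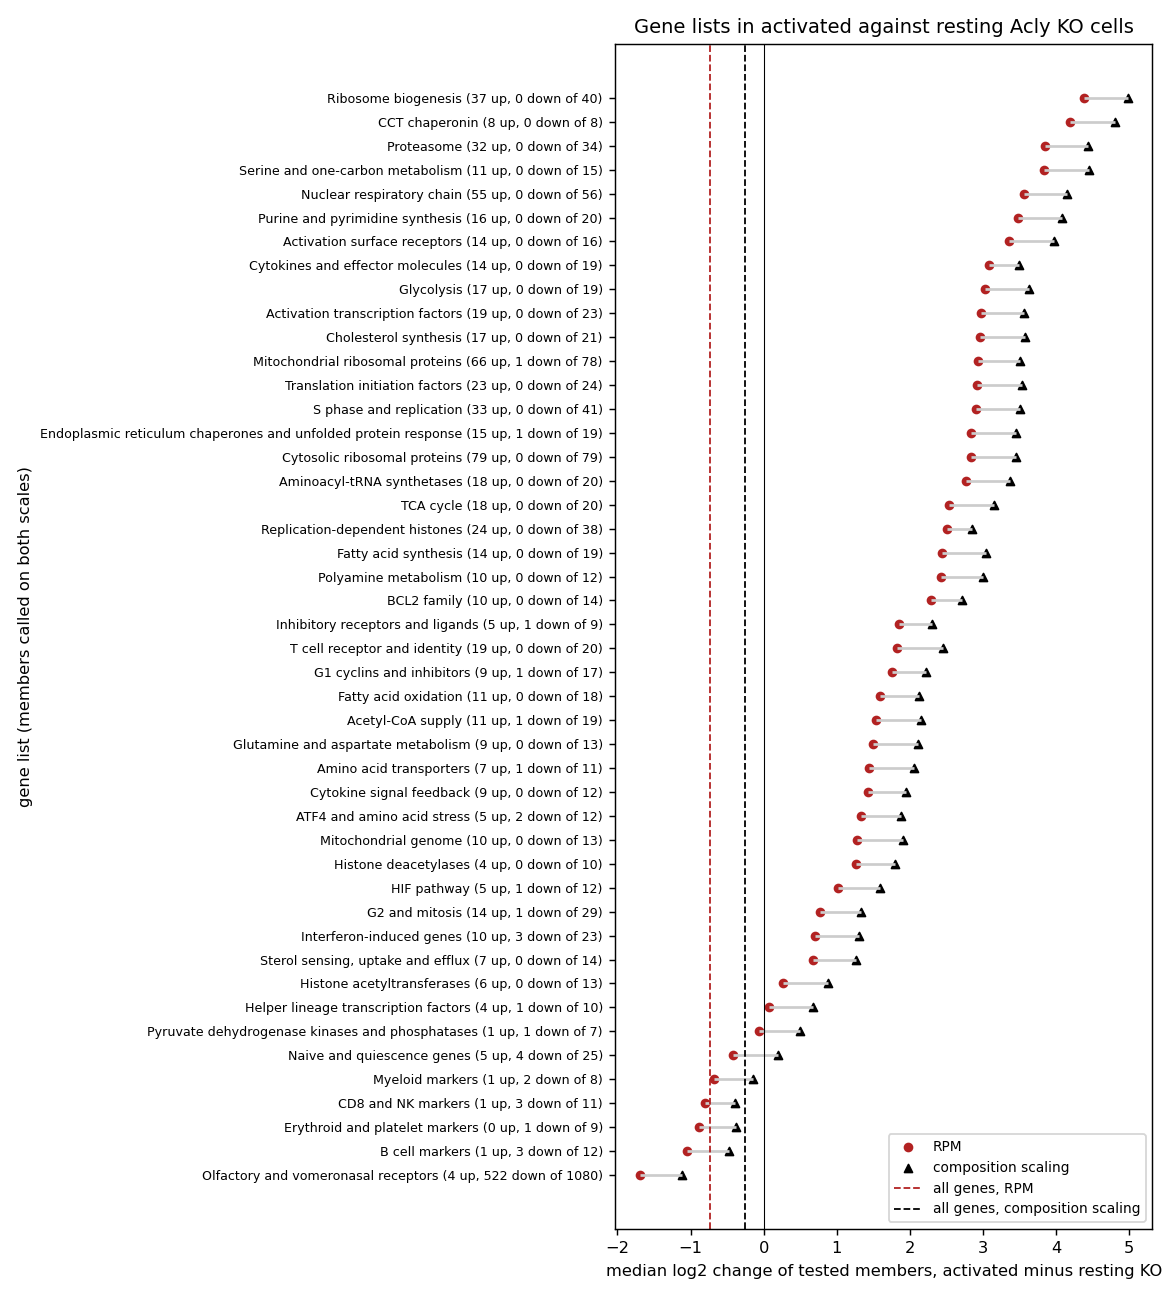
Median log2 change of the tested members of each gene list in activated against resting Acly KO cells, on RPM (circles) and after composition scaling (triangles), with dashed lines at the medians of all genes, -0.73 and -0.26. Ribosome biogenesis stands at 4.38 on RPM, and the olfactory and vomeronasal receptors stand at -1.69.

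Genes of T cell identity rose in 19 of 20, with a median log2 change of 1.83 on RPM and 2.45 after scaling, and Cd27, a costimulatory receptor, did not pass on RPM (44.4 ± 9.11 RPM in activated and 39.4 ± 8.97 RPM in resting KO). Cd4, the coreceptor by which the cells are known, had 162, 180 and 202 RPM in activated KO and 72.5, 85.9 and 94.1 RPM in resting KO (log2 change 1.10 ± 0.25, adjusted p 6.80e-04). Thy1 had 179, 157 and 161 RPM in activated and 109, 68.6 and 119 RPM in resting KO (log2 change 0.78 ± 0.23, adjusted p 0.00563), and its call was lost without resting library 2 (log2 change 0.54, adjusted p 0.0573, and adjusted p of 4.54e-09 to 0.868 over 25 alternatives). Zap70, the kinase of the T cell receptor, changed by 3.56 ± 0.34. The labelled cell type thus had its markers in every library.

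Genes of naive and resting T cells were called at about the shares of all genes, and less often than genes of at least 10 RPM. Of 25 tested, 5 rose (20%) and 4 fell (16%), beside 24.1% and 17.5% of all genes. At least 10 RPM in a group was reached by 24 of the 25, and of all genes of that level 36.4% rose and 24.5% fell. Counts moved with the scale: 10 were lower on RPM, 14 were lower when scaled to protein-coding RNA, and 15 were higher when scaled to receptor genes (both scalings are described with the receptor genes). Their median changed sign with the scale, at -0.42 on RPM and 0.20 after composition scaling. S1pr1, the receptor by which T cells leave lymph nodes, had 7.56, 9.71 and 7.49 RPM in activated KO and 51.7, 72.9 and 71.0 RPM in resting KO (log2 change -2.90 ± 0.35, adjusted p 7.64e-08). Il7r, the receptor of the survival cytokine interleukin-7, had 18.9, 19.4 and 22.5 RPM in activated and 113, 82.7 and 95.4 RPM in resting KO (log2 change -2.22 ± 0.31). Klf2, the factor that keeps S1pr1 expressed, had 31.1, 24.8 and 23.6 RPM in activated and 49.4, 67.5 and 62.1 RPM in resting KO and was lower on RPM alone (log2 change -1.16 ± 0.39, adjusted p 0.0134, and -0.54 after scaling). All 3 were lower in every activated library than in any resting one, and Il7r and Klf2 were named after their values were seen. Ccr7, the lymph node homing receptor, rose, with 144, 121 and 127 RPM in activated and 16.0, 11.7 and 29.1 RPM in resting KO (log2 change 2.85 ± 0.32). Tcf7, a factor of naive and memory cells, named after its values were seen, did not pass, at 65.8 ± 12.4 RPM in activated against 94.7 ± 24.9 RPM in resting KO. The transcription factor Foxp1 rose (log2 change 1.95 ± 0.25).

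The size of a fall was read against the receptor genes. Of 1080 tested olfactory and vomeronasal receptor genes, 522 fell and 4 rose, beside 17.5% of all genes that fell, and their median log2 change was -1.69 on RPM. The 5 most abundant falls were all such receptors, Vmn2r53 leading with 2331, 2616 and 3289 RPM in activated KO and 7011, 8616 and 7844 RPM in resting KO. Among genes with at least 100 RPM at rest on average, the interquartile range of the log2 change was -1.84 to -1.63 for the 120 receptors. For the 435 other genes of that level that fell it was -1.82 to -1.55, and both sets had a median of -1.71. Of the 4154 other genes that fell at any level, 3284 had a log2 change below the receptor median. Those genes were picked for having fallen, while the receptor median covers all tested receptors. This count therefore does not show that their falls were larger. When libraries were instead scaled to a constant sum of receptor RPM, a choice made after seeing the data, 10275 genes were higher and 245 were lower, all 245 of them among the falls above. Scaled to the share of protein-coding RNA, also chosen after seeing the data, 5322 genes were higher and 11785 lower. Thus 5322 rises (19.9% of genes tested) and 245 falls (0.915%) stood on all 4 scales. None of the falls counted above for acetyl-CoA supply, pyruvate dehydrogenase kinases and phosphatases, inhibitory receptors, helper factors or G1 genes was among these 245. The same holds for G2 and mitosis, amino acid transporters, mitochondrial ribosomal proteins, endoplasmic reticulum chaperones, ATF4 and amino acid stress, and the HIF pathway. The median log2 change of all genes was 0.57 on the receptor scale and -1.14 on the protein-coding scale, beside -0.73 on RPM, so the receptor scale shifted all changes upward by more than the protein-coding scale shifted them downward. By construction it therefore removes more falls than the other removes rises.

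Among the falls that stood on all 4 scales, 76 genes had at least 10 RPM in resting cells. S1pr1 was one of them. H2-Ob, a regulator of antigen loading found in B cells and some other lymphoid cells, was the largest named fall, with 2.27, 0.881 and 0 RPM in activated KO and 14.9, 13.9 and 29.1 RPM in resting KO (log2 change -3.91 ± 0.70, adjusted p 3.79e-05). Slc28a2, a nucleoside carrier, had 7.56, 0.881 and 2.14 RPM in activated and 22.9, 40.6 and 36.7 RPM in resting KO (log2 change -3.42 ± 0.54). Pik3ip1, an inhibitor of PI3-kinase in T cells, had 0.755, 1.76 and 2.14 RPM in activated and 17.2, 16.0 and 16.4 RPM in resting KO (log2 change -3.12 ± 0.55). Itga5, the alpha chain of a fibronectin receptor, had 16.7, 20.3 and 15.0 RPM in activated and 88.8, 97.9 and 129 RPM in resting KO (log2 change -2.56 ± 0.27, adjusted p 7.63e-09). Pik3ip1 and Itga5 were named after their values were seen, and the groups of all 4 genes stood apart. The 10 largest falls on RPM also held Mro, Olfr24, Brinp3, Fbxo43, Enpp6, Akap7, Trdn and Olfr1402, with log2 changes of -3.70 to -3.21 and under 3 RPM on average in activated KO. Of these, Trdn and Olfr1402 lost their call when scaled to receptor genes (adjusted p 0.0706 and 0.0553, limma), and the others of the 10 stood on all 4 scales. Trdn is best known from muscle and Fbxo43 from germ cells.

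Markers of other cell types were present in the KO libraries, and in each list more members fell than rose. Falls made up 25%, 27.3%, 25% and 11.1% of tested members (B cell, CD8 and NK, myeloid, erythroid and platelet), beside 17.5% of all genes. Erythroid and platelet markers had 1 fall and 0 rises among 9. Scaled to receptor genes, the lists in this order held 2, 3, 1 and 0 higher and 0, 1, 0 and 0 lower members. Summed B cell markers had 116, 140 and 158 RPM in activated KO and 133, 136 and 164 RPM in resting KO, with 1 rise and 3 falls among 12 tested. The rise was Ighm, the heavy chain of IgM, at 67.9, 97.4 and 76.5 RPM in activated and 13.7, 21.3 and 20.2 RPM in resting KO, while Ebf1, a factor of B cells, had 12.9, 15.0 and 18.2 RPM in activated and 37.8, 35.2 and 45.6 RPM in resting KO. Summed CD8 and NK markers had 37.8, 43.2 and 53.5 RPM in activated and 77.7, 63.9 and 82.0 RPM in resting KO, with 1 rise and 3 falls among 11, and myeloid markers had 43.1, 37.1 and 56.7 RPM in activated and 79.0, 76.8 and 105 RPM in resting KO, with 1 rise and 2 falls among 8. The rises were Nkg7, of cytotoxic granules, at 11.8 RPM on average in activated and 0.381 RPM in resting KO, and Cst3, a protease inhibitor abundant in myeloid cells, at 15.2 RPM in activated and 3.43 RPM in resting KO. Itgam and Csf1r of myeloid cells and Klre1 of NK cells had counts in all 6 libraries, at 9.72, 9.70 and 7.37 RPM on average in activated and 34.0, 21.9 and 22.4 RPM in resting KO. Blk of B cells, Ncr1 of NK cells and Cd14, S100a8 and Elane of myeloid cells had no count in any of the 6 libraries. Erythroid and platelet markers summed to 92.4, 28.2 and 553 RPM in activated and 74.3, 85.3 and 1217 RPM in resting KO, so that library number 3 was the highest of both groups and its sum exceeded its level of Cd4. The part of other cells in the results was not tested.

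The response was then set beside that of WT cells, which share no library with it, to ask whether the deletion altered the change on activation. Both changes came from 1 fit of the 12 libraries with a shared estimate of the spread, so KO and WT calls are not independent. On the same 26773 genes, 6637 (24.8%) were higher and 7407 (27.7%) lower on RPM in activated than in resting WT cells. Of the 11139 genes called on both scales in KO, 10951 (98.3%) had the same sign in WT and 8295 (74.5%) were also called there on both scales. Across all genes tested the log2 changes of KO and WT had a Pearson correlation of 0.891, which is across genes and not across independent replicates. No gene passed in the test of the difference itself, KO change minus WT change (limma, lowest adjusted p 0.797). Without adjustment, p was under 0.05 for 418 genes (1.56%) with a higher and 760 (2.84%) with a lower change in KO, and 1339 are what that threshold gives by chance. edgeR on recovered counts called 1 higher and 3 lower, and DESeq2 called 0. A difference that misses the threshold does not show that the responses were alike. The genotypes also differed in Ddx3y, which had 74.4, 93.6 and 5.28 RPM in activated and 57.2, 45.3 and 19.4 RPM in resting WT libraries 1 to 3. Libraries 1 and 2 were thus high in WT, but library 1 alone in KO. The part of this in the comparison was not tested.

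**Figure D5:**
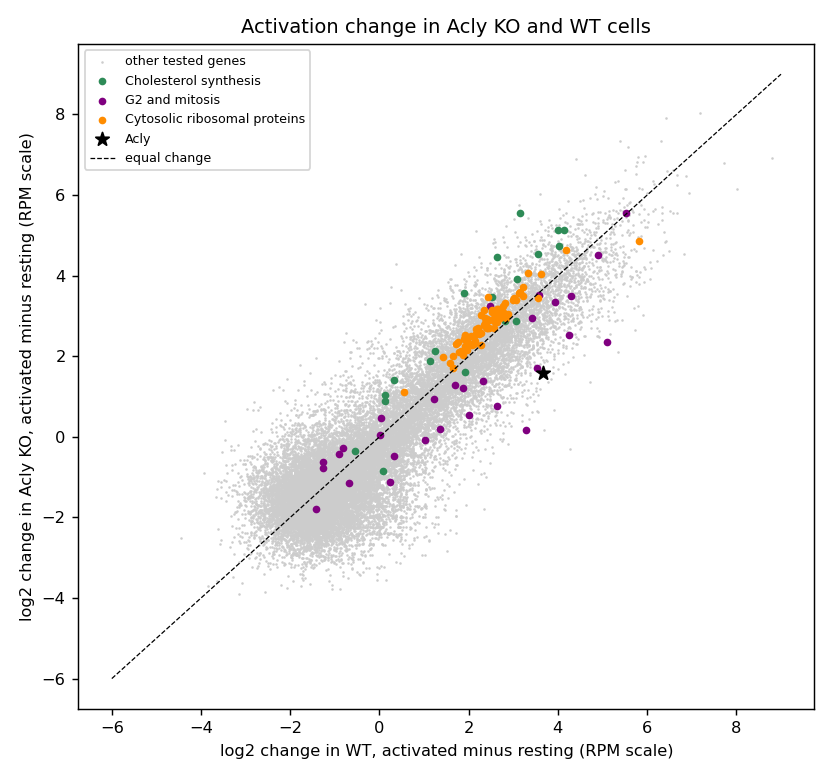
Each point is a gene, with its log2 change on activation in Acly KO on the vertical and in WT on the horizontal axis, both on RPM with 3 libraries a group; coloured points mark 3 gene lists and the star marks Acly, at 1.60 in KO and 3.67 in WT. Most cytosolic ribosomal protein and cholesterol synthesis genes lie above the line of equal change, and most genes of G2 and mitosis lie below it.

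Some lists lay to a side of the WT change, given here as values, since no member passed the test of the difference. The median of all genes, KO change minus WT change, was -0.11 on RPM and 0.02 after composition scaling. Of 21 cholesterol synthesis genes 18 changed more in KO, with a median difference of 0.83 on RPM and 0.97 after scaling. Hmgcs1 changed by 3.57 ± 0.35 in KO and 1.89 ± 0.35 in WT, Fdft1 by 5.57 ± 0.48 in KO and 3.15 ± 0.48 in WT, and Cyp51 by 5.13 ± 0.34 in KO and 4.13 ± 0.34 in WT. Fdft1 averaged 64.3 RPM in activated KO and 48.8 RPM in activated WT. At rest it averaged 1.18 RPM in KO, below the worth of 3 counts, and 4.94 RPM in WT, so its difference is loosely bounded. Of 79 cytosolic ribosomal protein genes 77 changed more in KO, by a median of 0.42 on RPM and 0.56 after scaling. Of 29 genes of G2 and mitosis 21 changed less in KO, with a median difference of -0.48 on RPM and -0.34 after scaling, and Ccnb1 changed by -0.07 ± 0.39 in KO and 1.02 ± 0.39 in WT. Of all 26773 genes, 15224 lay below the WT change on RPM and 11549 above it, to which these counts compare. Of 38 histone genes 25 changed less in KO (median difference -0.49). Irf4 changed by 4.33 ± 0.31 in KO and 6.06 ± 0.31 in WT, Thy1 by 0.78 ± 0.23 in KO and 2.01 ± 0.23 in WT, and Klf2 by -1.16 ± 0.39 in KO and -2.96 ± 0.39 in WT. Irf4 averaged 163 RPM in activated KO and 199 RPM in activated WT. At rest it averaged 7.78 RPM in KO and 2.60 RPM in WT, the latter below the worth of 3 counts in resting WT libraries (3.48 to 4.47 RPM). Taf1, a subunit of the general transcription factor TFIID, and Plekha2, an adaptor that binds membrane lipids, were among the genes that edgeR called lower, with log2 changes of -0.93 ± 0.40 and -1.37 ± 0.29 in KO against 0.88 ± 0.40 and 0.31 ± 0.29 in WT by limma. Members of a list are not replicates of a genotype, and these medians carry no test.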

How the data were processed

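RNA of mouse CD4 T cells was sequenced from a single end over 75 bp after removal of ribosomal and globin RNA, per the labels' protocols. The authors deposited 1 table of 46981 gene identifiers in RPM, each library summing to 1000000, and the submitters' processing notes name GRCm38 and mm10. No aligner or counter is named there. The RPM values of these 6 libraries could be turned back into whole counts (tolerance 0.01) by inverting a correction for coinciding molecular identifiers (4096 of 6 bases); the labelled protocol names no such identifiers, so the library type was not settled. Of the identifiers, 46206 matched GENCODE M21 (GRCm38).

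Changes were fitted with limma 3.58.1 (R 4.3.3, trend and robust) on log2(RPM + 0.5) over the 12 libraries of the cohort in 4 groups, with Benjamini-Hochberg adjustment and a threshold of 0.05. Composition scaling trimmed 30% of log ratios and 5% of levels. edgeR 4.0.16 and DESeq2 1.42.0 on recovered counts (corrected and rounded), other pseudocounts, filters and scalings, and leaving out each library were alternatives. The main test was limma on RPM because the deposited values are not counts. Scripts were tested on simulated data. Tables were made with Python 3.11.15. Means are given ± SD and log2 changes ± SE.

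The comparison, the gene lists and the genes followed were chosen with earlier results of these data known. Genes named are Acly, the 15 largest rises and 10 largest falls and the 5 most abundant of each (called on both scales, apart in all 9 pairs of libraries, at least 10 RPM, no predicted genes, pseudogenes or receptor segments), and up to 4 members a list with the smallest p; all others, marked genes and single exceptions to a list alike, were named after their values were seen. Some list members are not reported here. A list is given by counts and median with no test. Motif shares over tested and risen genes are descriptions only, since 78.2% of tested protein-coding genes had a promoter window.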

Additional observations from a re-analysis of the deposited data

How the results depend on the processing

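The choice of scale moved the count of falls most. Falls on RPM numbered 8711 and were 4676 after composition scaling, and scaling to receptor genes gave 10275 higher and 245 lower genes. The other alternatives left these counts within 1.5 times of the main ones. They were pseudocounts, filters, quantile normalization, edgeR, DESeq2, only KO libraries, limma without trend and robust fitting, and scaling to protein-coding RNA. Leaving out 1 library gave 5375 to 6650 rises and 5986 to 9020 falls on RPM, 6393 to 7916 rises and 3367 to 5364 falls after scaling, and 5375 to 6650 rises and 3367 to 5364 falls on both scales. For KO change minus WT change it gave 0 to 1 calls in each direction, limma without trend and robust fitting gave 1 higher and 6 lower, and edgeR gave 1 higher and 3 lower.

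The numbers of the libraries pair them only by number: deviations from group means correlated at 0.111, 0.0924 and 0.0684 in KO and at 0.107, 0.168 and 0.264 in WT for the same number (11420 genes), and every KO library correlated best with its own number, a hint from the data and not from the design. With a replicate block 6637 genes were higher and 9187 lower on RPM, 7888 and 4799 after scaling, and 1 gene had a lower change in KO than in WT.

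Of the 46 lists, only those with a count that moved by more than 1.5 times, or to 0, from RPM to composition scaling are given here. Falls after scaling numbered 4 for naive genes (with 9 rises), 3 for B cell markers and 2 for myeloid markers. There was 1 each for inhibitory receptors, helper factors, G2 and mitosis, the pyruvate dehydrogenase kinases (with 2 rises) and the HIF pathway. There were 0 for activation factors, S phase, histones, sterol sensing, fatty acid synthesis and oxidation, acetyltransferases and deacetylases. There were also 0 for glutamine and one-carbon metabolism, respiratory chain, ribosome biogenesis, initiation factors, proteasome and BCL2 family. Of 161 genes followed, 155 passed on RPM, and 3 lost the call when 1 library was left out (Acly, Thy1 and Acaca). Scaling to receptor genes turned the sign of Vmn2r53 (0.12), Vmn2r114 (0.0601), Olfr1307 (0.12), Acss2 (1.03), Pdk1 (0.40), Klf2 (0.46), Ebf1 (0.26), Plekha2 (0.25), Tcf7 (1.13), Cdkn1b (0.22), Acaca (0.79) and Ccnb1 (1.50), since it adds to every log2 change. Of these, Acss2, Tcf7, Acaca and Ccnb1 were called higher on that scale (adjusted p 0.0293, 0.00152, 0.0371 and 0.00154, limma), and the others did not pass. The alternative planned for promoter motifs was not run, because only 78.2% of tested protein-coding genes had a window. The worth of 3 counts, up to 3.78 RPM at rest, limits the size of the rises from near 0.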

Other observations

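The highest levels in the resting KO libraries belonged to a group of predicted genes that are listed as protein-coding. Gm10800 averaged 24201 RPM in activated KO and 32810 RPM in resting KO, with a log2 change of -0.45, and Gm10717 averaged 15636 RPM in activated and 22993 RPM in resting KO, with a log2 change of -0.57. Both were lower on RPM alone. Back-calculated from RPM, Gm10800 used at least 4056 of 4096 molecular identifiers in every activated library and at least 4072 in every resting one. Its change thus leans on the inferred correction for coinciding identifiers.

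Of the 4676 genes that fell on both scales, 583 were annotated as lincRNA, 256 as antisense transcripts and 748 as transcripts to be experimentally checked. A further 443 genes that rose had no count in any resting KO library.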
